A study of Mus musculus with 18 samples.

Results

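The genes described here are the 5 members of the NF-κB subunit family, Rela, Relb, Rel, Nfkb1 and Nfkb2. They were taken by name from the merged annotation, which held 23305 genes with a RefSeq transcript, and all 5 were among the 12341 genes that reached 1 FPKM in 2 or more libraries. FPKM is the number of fragments per kilobase of transcript and M mapped fragments, so that levels of different genes are compared per length. The cells were immortalized mouse embryonic fibroblasts lacking rela (rela-/-), into which mouse RelA had been put back with the retroviral vector pBABE-puro. One line carried the wild-type protein, RelA(wt). RelA(TA2) cells carried the double substitution L449A and F473A in the second transactivation region, and RelA(Ser276Ala) cells carried S276A. RNA was taken before stimulation (0 h) and after TNFα at 5 ng/ml had been present for 1 h or 2 h, with 2 libraries per condition, 9 conditions and 18 libraries in all. Message for RelA was thus made from a vector in all 3 lines, controls included, and the vector copy and the disrupted chromosomal copy cannot be told apart in the levels of Rela. Each genotype is 1 reconstituted line, so the mutation and the line cannot be told apart either.

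NF-κB is a family of dimeric transcription factors that share a DNA-binding Rel homology region. RelA, RelB and c-Rel carry transactivation domains, whereas p105 (Nfkb1) and p100 (Nfkb2) are precursors that are processed to p50 and p52 and whose uncut forms also hold partner subunits in the cytoplasm. In resting fibroblasts the dimer of p50 and RelA is held by IκB proteins. TNFα releases it, and the genes of several subunits are themselves known targets of the pathway.

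The codons that the mutant lines change are shown first, since they define the lines. They were read from the GENCODE transcript Rela-201 on GRCm38 (the same build as mm10, plus strand), with the codon in capitals. Positions are residues counted from the initiator methionine of a coding sequence of 549 residues. The sequences are the reference, not the inserted constructs.
S276A, chr19:5641604-5641648, exon 8: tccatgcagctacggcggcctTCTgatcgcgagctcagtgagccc
L449A, chr19:5647090-5647134, exon 11: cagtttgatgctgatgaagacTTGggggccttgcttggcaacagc
F473A, chr19:5647162-5647206, exon 11: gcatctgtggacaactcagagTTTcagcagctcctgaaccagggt
The serine codon lies in the part that encodes the Rel homology region, and the other 2 codons lie in the last exon, 11.

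Promoter windows of 300 bases, 250 before and 50 after an annotated start, came from RefSeq on GRCm38.p6, and 3 of the 5 genes had an entry (Rel, Rela and Nfkb2, with 5 windows). They were searched on both strands for the κB decamer consensus, which is the binding motif of these proteins and which 4.51% of all 32851 windows held. The windows of Rel and the first and second of Nfkb2 are shown because they held it, with the matches in capitals, and that of Rela because it held none. Overlapping matches run together.
Rel, chr11:23770920-23771219, minus strand: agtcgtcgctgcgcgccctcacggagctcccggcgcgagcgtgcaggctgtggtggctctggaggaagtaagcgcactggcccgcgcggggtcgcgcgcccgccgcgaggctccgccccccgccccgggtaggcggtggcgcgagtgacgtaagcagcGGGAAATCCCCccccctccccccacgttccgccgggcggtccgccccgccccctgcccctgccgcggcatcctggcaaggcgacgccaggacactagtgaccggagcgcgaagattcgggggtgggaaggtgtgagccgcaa
Nfkb2, chr19:46304487-46304786, plus strand: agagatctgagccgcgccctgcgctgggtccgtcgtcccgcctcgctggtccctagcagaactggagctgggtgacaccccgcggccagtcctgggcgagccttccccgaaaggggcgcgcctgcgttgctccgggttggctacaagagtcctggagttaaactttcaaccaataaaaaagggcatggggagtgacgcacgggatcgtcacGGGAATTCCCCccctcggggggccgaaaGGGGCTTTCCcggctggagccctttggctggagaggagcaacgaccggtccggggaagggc
Nfkb2, chr19:46305445-46305744, plus strand: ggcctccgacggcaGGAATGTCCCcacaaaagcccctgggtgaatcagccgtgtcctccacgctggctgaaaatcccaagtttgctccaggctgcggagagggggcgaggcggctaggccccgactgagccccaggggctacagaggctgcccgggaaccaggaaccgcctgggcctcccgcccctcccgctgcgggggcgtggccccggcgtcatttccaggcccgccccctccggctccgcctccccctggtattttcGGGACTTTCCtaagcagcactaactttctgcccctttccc
Rela, chr19:5637291-5637590, plus strand: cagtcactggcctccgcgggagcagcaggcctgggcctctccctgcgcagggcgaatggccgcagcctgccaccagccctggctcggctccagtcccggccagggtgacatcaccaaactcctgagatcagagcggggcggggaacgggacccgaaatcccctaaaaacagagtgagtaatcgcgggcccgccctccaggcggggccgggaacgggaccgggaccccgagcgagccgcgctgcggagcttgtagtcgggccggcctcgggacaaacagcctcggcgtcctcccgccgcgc
Counted from the annotated start, with negative positions upstream, the match in the Rel window begins at -92 and those in the first Nfkb2 window begin at -39 and -11. The second Nfkb2 window has matches at -236 and 11, and the latter also falls in the remaining window of that gene, at -225. A match is a description of the letters and not evidence that a protein binds there.

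The libraries held 25.3 M to 31.3 M mapped fragments, worked out from each FPKM and its upper confidence limit. All 10 fibroblast markers were present, with a summed level of 3507 to 4843 FPKM per library. The 6 lymphocyte and 4 epithelial markers were at 0 in every library. Of 6 macrophage markers 3 reached 1 FPKM (Csf1r, Cd68 and Lyz2) and the defining genes Ptprc, Emr1 and Itgam were at 0, with a summed level of 6.87 to 13.2 FPKM, and of 4 endothelial markers Cdh5 alone reached 1 FPKM. In such bulk samples, fewer expressing cells and less RNA per cell cannot be told apart. The study calls the 2 libraries of a condition independent replicates.

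Each gene has 2 values per library. The summed FPKM adds the levels of all assembled transcripts of the gene. The deposited assemblies cut some genes into pieces that do not overlap, and a sum then counts the same message more than once. In 1 RelA(TA2) library at 0 h, Nfkb2 was assembled as a 5′ piece at 40.3 FPKM and a 3′ piece at 59.1 FPKM, which the sum puts at 99.5 FPKM. In 1 RelA(wt) library at 0 h, a 246-base piece of Nfkb1 at 25.6 FPKM was added to the main transcript at 15.4 FPKM. No single transcript covered 80% of the gene's exonic bases in 6 of 18 libraries for Rel and in 3 of 18 for Nfkb2, but 1 did in every library for Rela, Relb and Nfkb1. The base-weighted FPKM, added after the values were seen, weights each transcript by the share of the gene's RefSeq exonic bases that it covers. The median SD between replicate libraries, on the log2 scale, was 0.116 over 11663 genes with it and 0.298 with the summed FPKM. Both are given below, the summed FPKM as the planned measure.

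**Figure D1:**
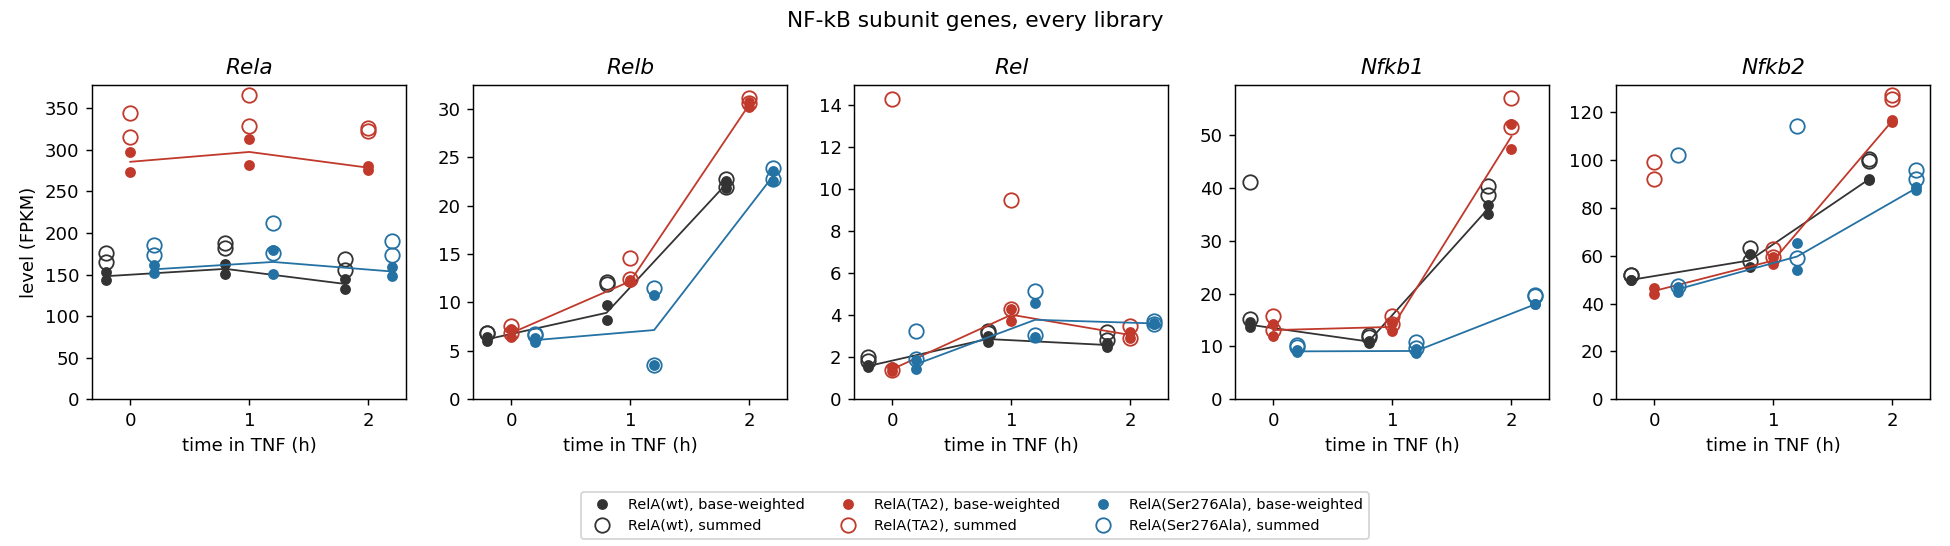
Level in FPKM (vertical axis, linear from 0) of each subunit gene in every library against hours in TNFα (horizontal axis), with filled points for base-weighted and open circles for summed FPKM, and lines through the base-weighted means of the 2 libraries. Rela is higher in both RelA(TA2) libraries at every time, Relb, Nfkb1 and Nfkb2 are highest at 2 h in each line by the base-weighted measure, and open circles far above filled points mark genes assembled in pieces.

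Rela, the gene that was put back, was the most abundant subunit message in every library per base of transcript. By base-weighted FPKM it stood at 143 and 153 before TNFα, 163 and 151 at 1 h and 145 and 132 at 2 h in RelA(wt) cells. In RelA(TA2) cells it stood at 298 and 273, 313 and 282, and 281 and 275.9 at these times. RelA(Ser276Ala) libraries had 161 and 151, 180 and 151, and 159 and 148. The RelA(TA2) libraries thus lay above all others without overlap, and in each line the libraries of both later times overlapped in range with those at 0 h. Rela message was thus present in all 3 lines. Its level set the RelA(TA2) libraries apart but did not separate RelA(wt) from RelA(Ser276Ala) libraries, and it does not show which substitution is encoded.

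Nfkb2, which encodes p100 (mm10, chr19:46304737-46312090, plus strand), came second before TNFα, at 49.9 and 49.96 base-weighted FPKM in RelA(wt), 46.7 and 43.9 in RelA(TA2) and 47.1 and 45.0 in RelA(Ser276Ala) cells. At 1 h it was at 60.7 and 55.5, 56.6 and 59.5, and 65.2 and 54.2 in these lines. At 2 h it was at 92.1 and 91.7, 117 and 116, and 88.9 and 87.8. Every 2 h library lay above every earlier library, and at 2 h the RelA(TA2) pair lay above both other lines.

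Nfkb1, which encodes p105 (chr3:135584655-135691547, minus strand), was at 14.6 and 13.6 base-weighted FPKM before TNFα in RelA(wt) cells, 14.3 and 11.9 in RelA(TA2) cells and 9.24 and 8.88 in RelA(Ser276Ala) cells. At 1 h the pairs were 11.1 and 10.7, 14.5 and 12.9, and 9.55 and 8.72. At 2 h they were 35.1 and 36.8, 52.1 and 47.3, and 17.95 and 17.97. The RelA(Ser276Ala) libraries were the lowest at every time, and at 2 h the 3 lines did not overlap.

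Relb, the subunit best known from the non-canonical pathway (chr7:19606222-19629438, minus strand), was at 5.98 and 6.42 base-weighted FPKM before TNFα in RelA(wt), 6.42 and 7.26 in RelA(TA2) and 5.94 and 6.28 in RelA(Ser276Ala) cells. At 1 h the pairs were 9.72 and 8.15, 12.3 and 12.1, and 3.51 and 10.8, and the 2 RelA(Ser276Ala) libraries thus disagreed. At 2 h they were 21.8 and 22.6, 30.2 and 30.7, and 22.6 and 23.6, above all earlier libraries. In the low library at 1 h, replicate 1, the 1 transcript placed on Relb had 6568 bases, of which 4596 were intronic. A further piece at the 5′ end had 577 bases at 3.77 FPKM and entered the base-weighted FPKM. It was not counted in the summed FPKM or the recovered fragments, since 49.9% of it lay in exons and 50% was required there. The fragments recovered for Relb there, 24.8 per M fragments in genes, were close to the 25.5 of the other library. They include the fragments from intronic bases of the placed transcript, so the closeness does not show equal exonic levels.

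Rel, which encodes c-Rel (chr11:23741729-23770970, minus strand), was the least abundant, at 1.64 and 1.53 base-weighted FPKM before TNFα in RelA(wt), 1.34 and 1.53 in RelA(TA2) and 1.45 and 1.89 in RelA(Ser276Ala) cells. At 1 h it was at 3.01 and 2.73, 4.32 and 3.73, and 2.98 and 4.59. At 2 h it was at 2.70 and 2.47, 2.90 and 3.22, and 3.59 and 3.64. Every library at 1 h or 2 h lay above every library at 0 h. The summed FPKM of Rel was as high as 14.3 in 1 RelA(TA2) library at 0 h, where the gene was assembled in 3 pieces and 1 piece of 220 bases had 10.02 FPKM. In 17 of 18 libraries the assembled end of Rel ran past the RefSeq end, by up to 4.88 kb.

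Per base of transcript, the order before TNFα was therefore Rela, Nfkb2, Nfkb1, Relb and Rel in all 3 lines. The 2 libraries of a condition never overlapped with those of the next gene in that order at 0 h. At 2 h the order held in RelA(wt) and RelA(TA2) cells, while in RelA(Ser276Ala) cells Relb, at 22.6 and 23.6 base-weighted FPKM, lay above Nfkb1, at 17.95 and 17.97. Rela made up 67.3% ± 1.16 (SD, n = 2 libraries) of the base-weighted sum of the 5 genes before TNFα in RelA(wt) cells and 47.6% ± 1.86 at 2 h. In RelA(TA2) cells its share was 81.1% ± 0.253 and 58.2% ± 0.0964, and in RelA(Ser276Ala) cells 71.3% ± 0.499 and 53.6% ± 1.28.

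The first comparison asks how the subunit genes respond to TNFα in each line. With the summed FPKM, 3 of 30 tests over 5 genes, 3 lines and 2 times passed at an adjusted p under 0.05 from limma, all of them increases at 2 h. Relb rose by 1.64 on the log2 scale in RelA(wt) cells (SE 0.36, adjusted p = 0.0482) and by 2.03 in the RelA(TA2) line (SE 0.36, adjusted p = 0.0110). Nfkb1 rose by 1.88 in the RelA(TA2) line (SE 0.32, adjusted p = 0.00956). Among all 12341 genes, 1.88% were called at 2 h for RelA(wt), 4.06% for RelA(TA2) and 0.98% for RelA(Ser276Ala). At 1 h the shares were 1.61%, 1.99% and 1.5%, and no subunit gene was called. The call for Relb in RelA(wt) cells was lost in 16 of 18 fits that each left out 1 library (1.61 to 1.66 over all 18). In RelA(TA2) cells that for Relb was lost without 2 h replicate 2 (2.02), and that for Nfkb1 without 2 h replicate 1 (1.81) or 0 h replicate 2 (1.76). The call for Nfkb1 was also lost in a fit on the compared groups alone (adjusted p = 0.0929), where Nfkb2 in RelA(wt) cells passed instead (0.93, adjusted p = 0.0256).

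With the base-weighted FPKM, 17 of the 30 tests passed, 16 upward. At 2 h Relb, Nfkb1 and Nfkb2 rose in all 3 lines, where 8.93% of 11663 genes were called for RelA(wt), 22.5% for RelA(TA2) and 6.89% for RelA(Ser276Ala). Nfkb1 rose by 1.32 (SE 0.09, adjusted p = 7.30e-06) in RelA(wt) cells, by 1.89 (SE 0.09, adjusted p = 3.81e-07) in RelA(TA2) cells and by 0.95 (SE 0.09, adjusted p = 1.58e-04) in RelA(Ser276Ala) cells. Nfkb2 rose by 0.87, 1.35 and 0.93 in these lines (SE 0.08, highest adjusted p = 7.23e-05), and Relb by 1.76, 2.08 and 1.83 (SE 0.33, highest adjusted p = 0.00893). These rises were thus called in each line, whereas with the summed FPKM Nfkb1 had 0.65 in RelA(wt) cells (adjusted p = 0.459) and 0.93 in RelA(Ser276Ala) cells, and Nfkb2 had 0.93, 0.40 and 0.43, none past the test. Relb in RelA(Ser276Ala) cells had 1.73 by the summed FPKM and an adjusted p of 0.0538. The base-weighted calls for Relb at 2 h were lost without RelA(wt) 0 h replicate 1 (1.71) or RelA(wt) 2 h replicate 2 (1.73) in RelA(wt) cells, and without either 0 h library in RelA(Ser276Ala) cells (1.797 and 1.87).

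At 1 h Rel rose by the base-weighted FPKM in all 3 lines, by 0.69 (SE 0.16, adjusted p = 0.0302), 1.23 (SE 0.16, adjusted p = 7.65e-04) and 0.96 (SE 0.16, adjusted p = 0.00464). By the summed FPKM the values were 0.61, 0.39 and 0.58, none past the test. The base-weighted call in RelA(wt) cells was lost without any one of its 4 libraries at 0 h and 1 h (0.63 to 0.75), and those in RelA(Ser276Ala) cells at 1 h and 2 h without 0 h replicate 1 (0.82 and 0.79). The share of all genes called was 5.52% for RelA(wt), 9.74% for RelA(TA2) and 4.48% for RelA(Ser276Ala). At 2 h Rel was 0.88 and 0.93 above 0 h in the mutant lines, both past the test, and 0.57 in RelA(wt) cells (adjusted p = 0.0513). The summed FPKM had the opposite sign in RelA(TA2) cells at 2 h, at -0.52 (adjusted p = 0.791), and 0.46 in RelA(Ser276Ala) cells. With recovered fragments, which are also counted beyond the RefSeq end of Rel, the differences were 2.91, 2.85 and 1.98 at 1 h (adjusted p = 0.0755, 0.0641 and 0.270) and 1.92, 2.52 and 2.73 at 2 h (adjusted p = 0.186, 0.0519 and 0.0723), with no call. Where the 3′ end was assembled as a separate piece it was not counted, so these sizes depend on the assembly. The RelA(wt) pair at 2 h had 6.17 and 25.1 fragments per M, against 2.70 and 2.47 base-weighted FPKM. The rise of Rel was thus called by 1 of 3 measures. Since log2 values are taken after adding 0.5 FPKM, the differences in base-weighted FPKM understate the change of a gene this low. Nfkb2 rose at 1 h by 0.35 in RelA(TA2) cells (adjusted p = 0.0174) and by 0.37 in RelA(Ser276Ala) cells (adjusted p = 0.0223), with 0.22 in RelA(wt) cells (adjusted p = 0.185). The summed FPKM of Nfkb2 had the opposite sign in RelA(TA2) cells, at -0.64 (adjusted p = 0.455), and 0.24 and 0.21 in RelA(Ser276Ala) and RelA(wt) cells, none past the test. Each of the 2 base-weighted calls was lost in 3 of 18 fits without 1 library, with values of 0.31 to 0.39 in RelA(TA2) cells (without 0 h replicate 2 or either 1 h library) and 0.23 to 0.40 in RelA(Ser276Ala) cells (without 1 h replicate 1 or either 0 h library). Nfkb1 fell by 0.35 in RelA(wt) cells (SE 0.09, adjusted p = 0.0439), a call that 12 of 18 fits without 1 library lost (-0.40 to -0.31). Its differences at 1 h in the mutant lines were 0.07 and 0.01.

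Of the remaining 1 h values, those of Relb depended on the measure. The summed FPKM gave 0.77, 0.87 and -0.05 in RelA(wt), RelA(TA2) and RelA(Ser276Ala) cells, none past the test, and the base-weighted FPKM gave 0.49, 0.79 and 0.03, none past the test. The summed value in RelA(Ser276Ala) cells turned on 1 library, being 0.74 without the low replicate 1 (adjusted p = 0.00726) and -0.85 without replicate 2 (adjusted p = 0.00366). Leaving out 1 of the RelA(Ser276Ala) 1 h libraries, whichever it was, brought the summed values of the other 2 lines past the test (highest adjusted p = 0.00186), and likewise Relb at 2 h in RelA(Ser276Ala) cells. With recovered fragments the rise passed in all 3 lines, at 0.59 (adjusted p = 0.0226, where 6.69% of genes were called), 0.84 (adjusted p = 0.00217, 9.97% called) and 0.83 (adjusted p = 0.00300, 6.01% called). These fragments include those from introns within placed transcripts, so the rise is not one of exonic message alone. In the low RelA(Ser276Ala) library, 4596 of the 6568 bases of the placed transcript were intronic. Rela had no call after TNFα by any of the 3 measures. Its base-weighted differences from 0 h lay between -0.09 and 0.08 over the 6 tests, and the limits of their 95% intervals ran from -0.30 to 0.29 over all of them.

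**Figure D2:**
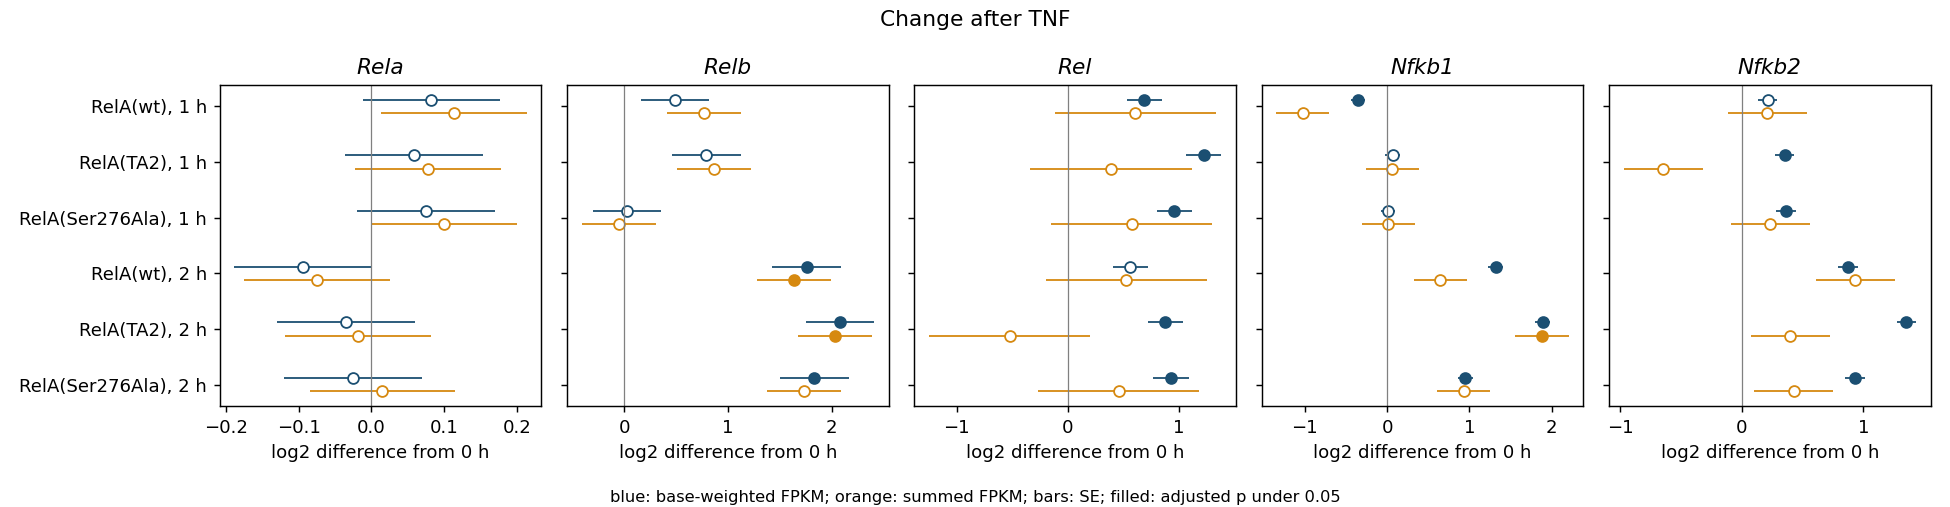
Log2 difference from 0 h (horizontal axis, own scale per gene) for each line and time (vertical axis), in blue for base-weighted and in orange for summed FPKM, with bars of 1 SE from the fit and filled points for an adjusted p under 0.05. Filled blue points at 2 h appear for Relb, Nfkb1 and Nfkb2 in all 3 lines and at 1 h for Rel in all 3 lines, and Rela has none.

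Relb showed 1 more pattern at 1 h, in its introns. The intronic level is the FPKM of assembled transcripts weighted by the share of the gene's 21017 intronic bases they cover. It was 0.506 and 0.640 in RelA(wt), 0.490 and 0.613 in RelA(TA2) and 0.958 and 0.472 in RelA(Ser276Ala) libraries at 1 h. At 0 h the 6 libraries had 0.00624 to 0.0297 and at 2 h they had 0 to 0.0748. Every 1 h library thus lay above every library of the other times, before the exonic level had reached its 2 h value. Of 11923 genes with introns, 32 (0.268%) had all 1 h libraries above all 0 h libraries in this measure, and this gene was among them. The highest value belongs to the RelA(Ser276Ala) library in which most bases of the placed transcript were intronic. Rela, Rel, Nfkb1 and Nfkb2 had no such separation, since at least 1 of their 1 h libraries was at 0, and their highest intronic levels at 1 h were 4.95, 0.0525, 0.0655 and 5.23. The libraries were not stranded, so that antisense transcription across the locus cannot be told apart from intronic RNA of Relb itself. What kind of RNA the intronic pieces came from was not tested. The number of genes with any intronic level was 3286 to 3758 per library at 0 h and 3158 to 3674 at 1 h. A gene at 0 in any 1 h library could not be among the 32. The 0.268% is thus a share of genes most of which could not show the pattern.

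**Figure D3:**
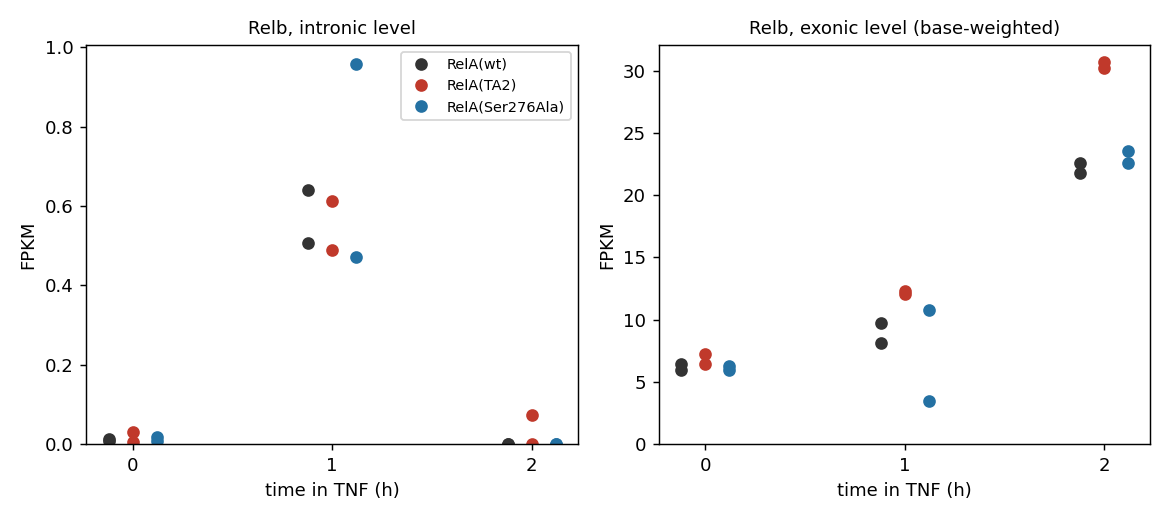
Intronic level (left) and base-weighted exonic level (right) of Relb in FPKM against hours in TNFα, with 1 point per library coloured by line. The 6 libraries at 1 h have intronic levels of 0.472 to 0.958, all others at most 0.0748, while the exonic level is highest at 2 h.

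The second comparison asks whether the lines differ at each time. With the summed FPKM, 3 of 30 tests passed, all for Rela in RelA(TA2) cells. The share of all genes called was 3.63%, 3.07% and 3.1% at 0, 1 and 2 h for RelA(TA2) against RelA(wt), and 2.13%, 3.21% and 3.44% for RelA(Ser276Ala). The base-weighted FPKM called 8 tests. Rela was higher in RelA(TA2) cells by 0.94 at 0 h, 0.92 at 1 h and 1.00 at 2 h (SE 0.09, highest adjusted p = 1.10e-04), where 17.5%, 13.7% and 15% of genes were called. These 3 calls also held with the summed FPKM, except in fits on the compared groups alone (adjusted p = 0.110, 0.0706 and 0.0574). For RelA(Ser276Ala) against RelA(wt), Rela differed by 0.08, 0.07 and 0.15 at these times, with 95% intervals from -0.14 to 0.36 in all, and no call. These values describe message only. By immunoblot, the paper found that the Ser276Ala protein was clearly less abundant than the wild-type protein. Similar message therefore does not show a matched amount of RelA. Whether the protein amount bears on the other differences of this line was not tested.

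At single times Nfkb1 differed between lines with the base-weighted FPKM but passed no test with the summed FPKM. RelA(Ser276Ala) stood below RelA(wt), with a log2 difference of -0.61 at 0 h (SE 0.09, adjusted p = 0.00186, 10.6% of genes called) and -0.98 at 2 h (SE 0.09, adjusted p = 5.73e-05, 20.1% called). The summed FPKM gave -1.27 (adjusted p = 0.0831) and -0.99 (adjusted p = 0.131). At 1 h the difference was -0.25 (adjusted p = 0.0903, 15.1% of genes called). In RelA(TA2) cells it was higher by 0.31 at 1 h (SE 0.09, adjusted p = 0.0410) and by 0.46 at 2 h (SE 0.09, adjusted p = 0.00618). The call at 1 h was lost in 12 of 18 fits without 1 library (0.23 to 0.39), and that at 2 h without RelA(TA2) 2 h replicate 1 (0.39). Nfkb2 was higher in RelA(TA2) cells at 2 h by 0.34 (SE 0.08, adjusted p = 0.0157), which was lost without any one of the 4 libraries of the 2 lines at 2 h (0.34 to 0.35). Relb and Rel had no call between lines by either measure, with base-weighted 95% intervals of -1.21 to 1.17 for Relb and -0.46 to 0.78 for Rel over the 6 tests.

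**Figure D4:**
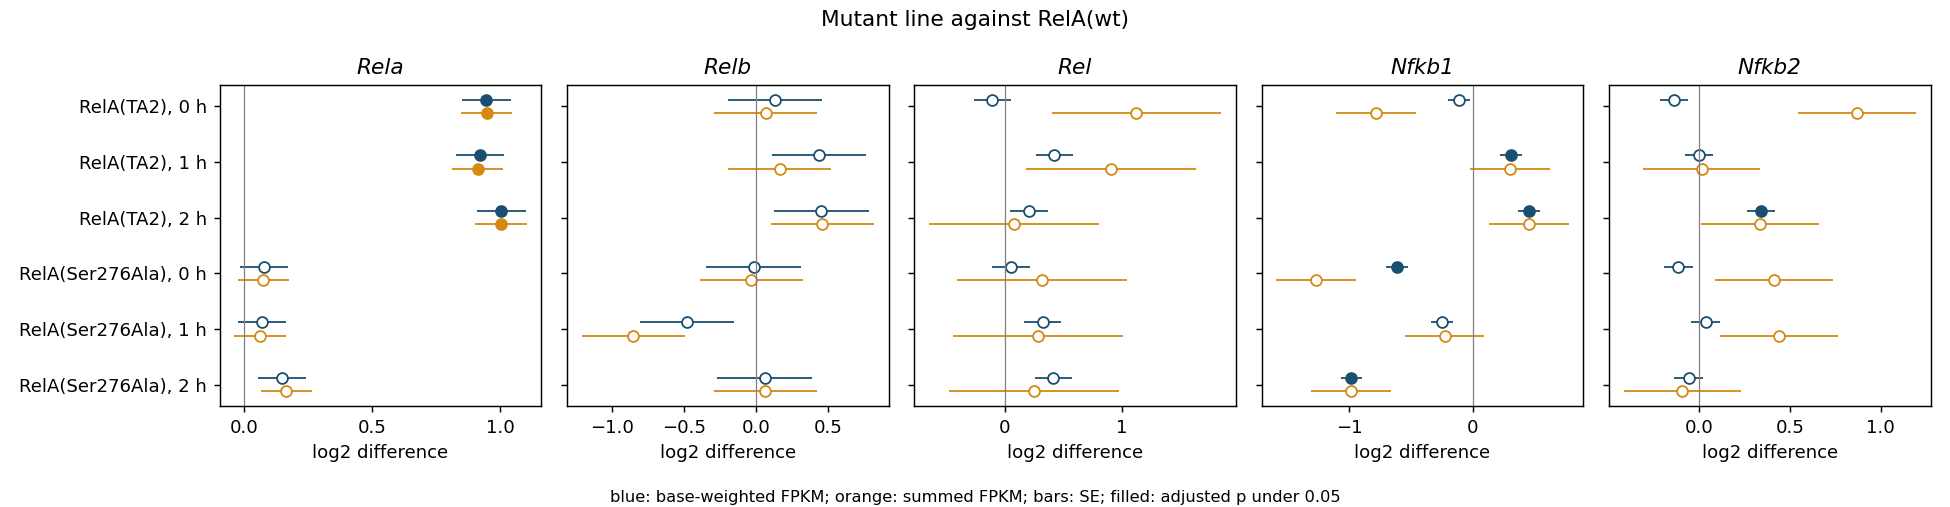
Log2 difference of each mutant line from RelA(wt) (horizontal axis, own scale per gene) at 0, 1 and 2 h (vertical axis), in blue for base-weighted and in orange for summed FPKM, with bars of 1 SE and filled points for an adjusted p under 0.05. Rela is 0.91 to 1.00 higher in RelA(TA2) at all times by both measures, and Nfkb1 is lower in RelA(Ser276Ala) at 0 h and 2 h by the base-weighted measure.

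Averaged over the 3 times, 4 of 15 tests passed with the summed FPKM, against 11.9%, 12.9% and 12.8% of all genes in the comparisons RelA(TA2) with RelA(wt), RelA(Ser276Ala) with RelA(wt) and RelA(TA2) with RelA(Ser276Ala). Rela in RelA(TA2) exceeded RelA(wt) by 0.95 (SE 0.06) and RelA(Ser276Ala) by 0.85 (SE 0.06). Nfkb1 in RelA(Ser276Ala) lay below RelA(wt), at -0.83 (SE 0.19, adjusted p = 0.0152), and in RelA(TA2) above RelA(Ser276Ala) by 0.82 (SE 0.19, adjusted p = 0.0160). The base-weighted FPKM gave -0.61 (SE 0.05, adjusted p = 8.32e-06) and 0.83 (SE 0.05, adjusted p = 6.25e-07) for these 2 differences. It called 6 tests, against 33.3%, 37.3% and 36.1% of genes, and the further 2 were Nfkb1 in RelA(TA2) above RelA(wt) by 0.22 (adjusted p = 0.00676), against -0.0065 (adjusted p = 0.992) with the summed FPKM, and Rel in RelA(Ser276Ala) above RelA(wt) by 0.26 (adjusted p = 0.0438). The latter was lost in 14 of 18 fits without 1 library (0.17 to 0.28).

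The third comparison asks whether the change after TNFα differs between lines. None of 20 tests passed in limma with either the summed FPKM (3 at an unadjusted p under 0.05) or the base-weighted FPKM (6 at an unadjusted p under 0.05), and 1 passed with recovered fragments, for Nfkb2 in RelA(TA2) cells at 2 h, at 0.54 (adjusted p = 0.0312, 0.316% of genes called). The summed shares of genes called were 0.316% and 0.227% for RelA(TA2) at 1 h and 2 h, and 0.227% and 0.17% for RelA(Ser276Ala). The base-weighted shares were 1.77%, 0.18%, 0.24% and 0.206%. The rise of Nfkb1 to 2 h differed from that in RelA(wt) by 0.57 in RelA(TA2) cells with the base-weighted values (95% interval 0.29 to 0.85, adjusted p = 0.126) and by -0.37 in RelA(Ser276Ala) cells (95% interval -0.65 to -0.09, adjusted p = 0.601). For Nfkb2 to 2 h the base-weighted difference was 0.48 in RelA(TA2) cells (95% interval 0.23 to 0.72, adjusted p = 0.146). Without RelA(TA2) 0 h replicate 1, 3 of the base-weighted tests passed, for Nfkb1 at 1 h (0.55) and 2 h (0.70) and for Nfkb2 at 2 h (0.52), all larger in RelA(TA2) cells. Without RelA(Ser276Ala) 1 h replicate 2, which leaves the low library, the test of Relb at 1 h passed at -1.21. Whether the lines differ in the other values was not detectable with 2 libraries per condition.

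The main transcript of Rela had the same number of exons in all 18 libraries. The gene has 11 exons at chr19:5637490-5648130 and its first exon, of 352 bases, holds the first 7 bases of the coding sequence. In every library the main transcript had 10 exons and began between 5638105 and 5638432, the start of exon 2, and no transcript joined exon 1 to exon 2. Exon 1 appeared as a separate piece in 0 of 6 libraries at 0 h, in 5 of 6 at 1 h and in 5 of 6 at 2 h, at up to 8.995 FPKM. It was missing in RelA(wt) replicate 1 at both later times. Whether a piece is listed depends on the assembler's limits, and no other gene was searched for such a pattern.

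**Figure D5:**
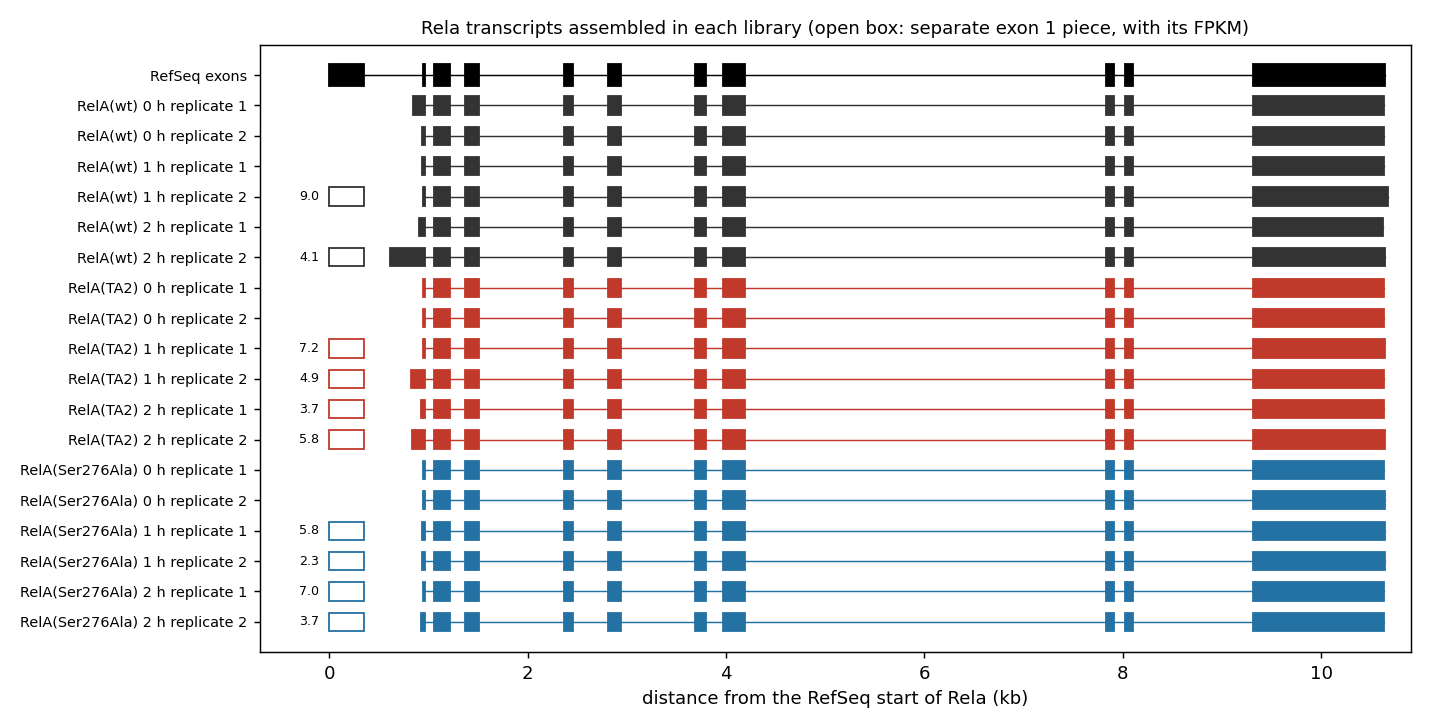
Map of the Rela transcripts assembled in each library against kilobases from the RefSeq start, with boxes for exons, the RefSeq exons on top and libraries grouped by line and time. The main transcript has 10 exons and starts near exon 2 in all 18 libraries, and a separate open box for exon 1, labelled with its FPKM, appears at 1 h and 2 h but in no 0 h library.

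Over the 18 libraries, which share lines and times, the base-weighted levels of Relb, Nfkb1 and Nfkb2 ran together, with Pearson's r on the log2 scale of 0.83 for Relb and Nfkb1, 0.88 for Relb and Nfkb2 and 0.87 for Nfkb1 and Nfkb2. Rel had r of 0.53 with Relb, 0.16 with Nfkb1 and 0.51 with Nfkb2, and Rela had 0.03 to 0.20 with the other 4. With the summed FPKM the first 3 pairs had 0.67, 0.38 and 0.45, and Rela had 0.11 to 0.35 with the other 4. Among 8998 other genes, those most like Rela in summed FPKM were Lgals9 (r = 0.97), Npnt (0.94) and Fn1 (0.93). Those most like Nfkb1 were Hip1r (0.92), Arntl (0.90) and Uck2 (0.90), and those most like Relb were Zxdb (0.91), Angptl4 (0.91) and Obfc2a (0.89). For Nfkb2 they were Tbc1d10a (0.82), Ston2 (0.80) and Ckb (0.80). For Rel they were Zc3h18 (0.84), Trappc8 (0.82) and Lsg1 (0.81), which with base-weighted FPKM had r of 0.17, 0.03 and -0.02. Ston2 likewise had -0.54 with base-weighted FPKM.

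The subunit genes were set beside 37 other genes of the pathway, of which 35 were tested. They cover the IκB inhibitors, the IκB kinase complex, receptors and their adaptors, ubiquitin regulators and co-activators, and were chosen with earlier results of these data known. In RelA(wt) cells at 1 h, 3 rose and none fell with the summed FPKM, with a median log2 difference of 0.04 against -0.01 over all genes. They were Tnfaip3, the ubiquitin editor A20, at 5.69 (SE 0.25, adjusted p = 3.28e-07), Nfkbia, which encodes IκBα, at 3.86 (SE 0.32, adjusted p = 6.07e-05), and the atypical IκB gene Nfkbiz at 4.01 (SE 0.34, adjusted p = 7.45e-05). The base-weighted FPKM called 6 higher and 1 lower. Of all genes, 1.61% were called with the summed and 5.52% with the base-weighted FPKM.

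At 2 h in RelA(wt) cells 4 of the 35 rose and none fell, with a median of 0.15 against -0.04 over all genes. They were Nfkbie, which encodes IκBε, at 1.65 (adjusted p = 0.0109), Nfkbib, which encodes IκBβ, at 0.79 (adjusted p = 0.0149), the A20-binding gene Tnip1 at 1.07 (adjusted p = 0.0150) and Sharpin, of the linear ubiquitin ligase complex, at 1.47 (adjusted p = 0.00944). Sharpin had 0.27 with base-weighted FPKM and -0.01 with recovered fragments, neither past the test. The base-weighted FPKM called 10 higher and 1 lower. Of all genes, 1.88% were called with the summed and 8.93% with the base-weighted FPKM.

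At 1 h in RelA(TA2) against RelA(wt) cells, none of the 35 was called by limma on the summed FPKM (8 at an unadjusted p under 0.05) and 5 were lower with the base-weighted FPKM, where 3.07% and 13.7% of all genes were called by these measures. Nfkbiz had -1.352 (adjusted p = 0.0661) and the kinase adaptor gene Tab3 -0.73 (adjusted p = 0.0972), against -1.37 (adjusted p = 1.54e-04) and -0.32 (adjusted p = 0.0163) with the base-weighted FPKM. Also lower with the base-weighted FPKM were Tnfaip3 (-0.80, adjusted p = 3.24e-04), Nfkbia (-0.80, adjusted p = 0.00964) and Traf5 (-0.57, adjusted p = 0.0331). By summed FPKM these had -0.77 (adjusted p = 0.148), -0.77 (adjusted p = 0.281) and -0.51 (adjusted p = 0.250). The summed value of Tab3 ran from -1.13 to -0.33 with 1 library left out, and its base-weighted call was lost in 4 of 18 such fits. In RelA(Ser276Ala) cells 2 were lower with the summed FPKM, Tnfaip3 at -2.39 (SE 0.25, adjusted p = 5.57e-04) and Nfkbiz at -2.17 (SE 0.34, adjusted p = 0.00803), and the base-weighted FPKM called 8 lower and 2 higher, against 3.21% and 15.1% of all genes. Nfkbia in these cells had -0.91 by summed FPKM (adjusted p = 0.177) and -0.96 by base-weighted FPKM (adjusted p = 0.00369). The medians of the list by the summed FPKM were -0.04 and -0.03 in the 2 lines, against -0.02 and 0.03 over all genes. None of the 5 subunit genes was called between RelA(Ser276Ala) and RelA(wt) at 1 h by limma with the summed or base-weighted FPKM, while recovered fragments put Nfkb1 lower, at -0.30 (adjusted p = 0.0220).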

How the data were processed

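Poly(A) RNA of 18 libraries was sequenced by the authors on an Illumina instrument. Per the submitters' processing notes, the authors used CASAVA 1.8.2, TopHat2 2.0.5, Bowtie2 2.0.0.7 and Cufflinks 2.0.2 on mm10. The deposited values are the FPKM of each assembled transcript, scaled by the authors for depth and length, and the output of Cuffdiff was not used. Transcripts were placed on the gene holding at least 50% of their bases, or covered by them over at least 50% of its exons (Python 3.11.15, pandas 2.3.3), and their FPKM added. Genes joined with a neighbour in some library numbered 466, none a subunit gene.

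Genes reaching 1 FPKM in 2 or more libraries were compared with limma 3.58.1 (R 4.3.3) on log2(FPKM + 0.5), with 1 mean per condition, 9 residual degrees of freedom and a trend of variance with level, two-sided, and p adjusted by Benjamini and Hochberg over all genes tested. A call is an adjusted p under 0.05. Where a locus held 1 assembled transcript, fragment counts were recovered from FPKM and its confidence limit. Of these counts, 88.9% to 90.2% of those under 500 lay within 0.02 of a whole number. For loci with several transcripts the counts were estimated from FPKM and transcript length, which this check does not cover. The fits were tested on simulated data. Named pathway genes are up to 4 called per comparison by summed FPKM with the smallest adjusted p, or 2 where none was called, and like genes are the 3 with the highest r among genes of mean at least 5 FPKM. Besides these, Tnfaip3, Nfkbia and Traf5 were named for RelA(TA2) and Nfkbia for RelA(Ser276Ala) at 1 h. The members and lists were chosen with earlier results of these data known.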

Additional observations from a re-analysis of the deposited data

Results flagged for a closer look

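The change of Nfkb2 from 0 h to 2 h differed between lines by 1 of the 3 measures. With recovered fragments per M fragments in genes the log2 change in RelA(TA2) exceeded that in RelA(wt) by 0.54 (95% interval 0.34 to 0.73, adjusted p = 0.0312 from limma), where 0.316% of genes were called. The fragments of Nfkb2 went from 158 and 152 per M to 414 and 420 in RelA(TA2) cells and from 181 and 181 to 334 and 338 in RelA(wt) cells. With base-weighted FPKM the difference was 0.48 (adjusted p = 0.146), and with summed FPKM it was -0.53 (adjusted p = 0.819). In both RelA(TA2) libraries at 0 h the summed value, 99.5 and 92.1 FPKM, was more than the base-weighted value, 46.7 and 43.9 FPKM.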

How the results depend on the processing

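With recovered fragments, the summed-FPKM counts of calls became 15 in place of 3 for the TNFα response of the subunit genes, 10 in place of 3 for mutant lines against RelA(wt), 1 in place of 0 for the difference in response and 8 in place of 4 for lines averaged over times. For the pathway list they became 11 (RelA(wt) at 1 h, from 3), 15 (RelA(wt) at 2 h, from 4), 10 (RelA(TA2) at 1 h, from 0) and 12 (RelA(Ser276Ala) at 1 h, from 2). With base-weighted FPKM, chosen after seeing the data, they became 17, 8, 0 and 6 for the subunit genes and 7, 11, 5 and 10 for the list. With the highest transcript only, the TNFα response had 7 calls and the list in RelA(TA2) cells 2. Fits on the compared groups only gave 1 call for the mutant lines and 0, 0 and 1 for the list in RelA(wt) at 1 h and 2 h and in RelA(Ser276Ala) cells. The cause of these shifts was not tested beyond the repeated counting that summed pieces bring by construction.

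Leaving out 1 library at a time, the summed counts ran from 1 to 7 (TNFα response), 3 to 6 (mutant lines), 0 to 4 (difference in response) and 4 to 7 (averages), and for the list from 3 to 5, 1 to 5, 0 to 2 and 2 to 4. The base-weighted counts ran from 12 to 21, 6 to 13, 0 to 3 and 5 to 9. The response count fell to 1 without RelA(TA2) 0 h replicate 2 or either RelA(TA2) 2 h library and rose to 7 without either RelA(Ser276Ala) 1 h library, and the count of differences in response rose to 4 without RelA(wt) 0 h replicate 2. Where 1 library of a condition is left out, the other is assumed to vary like the rest. No share of all genes is given for these fits, so their counts describe the subunit genes and the list alone.

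Signs turned in the following values, among others that passed no test. Nfkb1 at 2 h in RelA(wt) cells ran from -0.057 to 1.35 by summed FPKM (lowest without RelA(wt) 0 h replicate 2), and Nfkb2 at 2 h in RelA(Ser276Ala) cells from -0.12 to 0.98 (lowest without its 0 h replicate 2). Relb at 1 h in RelA(Ser276Ala) cells, -0.05 by summed FPKM, was 0.16 with the highest transcript, 0.83 with recovered fragments and 0.026 base-weighted, and ran from -0.85 to 0.74 with 1 library left out. The response difference of Nfkb2 in RelA(TA2) cells at 2 h, -0.53, was 0.30, 0.54 and 0.48 by these measures. By summed FPKM, base-weighted FPKM and recovered fragments, Nfkb2 at 1 h in RelA(TA2) cells was -0.64, 0.35 and 0.55, Rel at 2 h in RelA(TA2) cells -0.52, 0.88 and 2.52, Nfkb2 in RelA(TA2) against RelA(wt) at 0 h 0.87, -0.14 and -0.22, and Nfkb1 in RelA(TA2) against RelA(wt) over all times -0.0065, 0.22 and 0.23. Sharpin at 2 h was -0.0087 with recovered fragments.

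Same-numbered libraries deviated together with r of -0.08 to 0.07 over 36 pairs (summed) and -0.12 to 0.11 (base-weighted, 2 pairs over 0.1). No clear pairing by number was thus seen, but a weak shared batch is not excluded. With a replicate block the summed counts were 3, 3, 0 and 4 for the subunit genes and 3, 4, 0 and 2 for the list, and the base-weighted counts 17, 9, 0 and 6. With 2 libraries per condition, p rests on the spread between replicate libraries pooled over all 9 conditions and drawn toward a trend over all genes. It does not measure the spread of the compared libraries alone.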
